A study of Mus musculus with 12 samples.

Results

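The Dlx and Msx homeobox genes were examined for peaks of the lysine acetyltransferase MOF (also called KAT8) in visceral white adipose tissue of mice. The set held 8 genes (Dlx1 to Dlx6, Msx1 and Msx2) of 21911 protein-coding genes in the GENCODE M21 annotation. The genes were listed by name, but the list was chosen by the peaks of both genotypes at these genes, that is by peak position, fold enrichment and summit position. All peaks that touched a gene body, the 3 kb on either side of any start site, or the stretch between a pair of neighbouring Dlx genes were taken as peaks of the loci. At the 5 loci, which spanned 97829 bp, there were 10 of the 19773 peaks in the Mof+/+ list and 14 of the 731 peaks in the Mof+/- list. Which list had more depended on the setting: with 1 kb around starts there were 6 and 4, with 3 kb around starts and no gene bodies or stretches 9 and 9, and with peaks within 1000 bp merged 4 and 9. These counts were part of the choice of the genes, so they and the values below are a description with no test.

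Chromatin immunoprecipitation followed by sequencing (ChIP-seq) was used to ask where MOF sits on the genome and how this differs when an allele of Mof is missing. The labels give 12 libraries in 6 groups, with 2 MOF ChIP libraries for each genotype beside histone H3 ChIP and input DNA. The Mof+/+ mice were wild type and the Mof+/- mice were heterozygous for Mof in the whole body, both on the C57BL/6 strain by the labels (backcrossed with C57BL/6J by the methods), 8 weeks old and on a standard diet. The tissue was homogenised without sorting by cell type, then passed through a strainer, and nuclei were washed free of fat. The share of each cell type after these steps is unknown, and peaks at a gene do not give its expression. By the labels each genotype had 2 replicates, whereas the design text counts 3 Mof+/- and 2 control animals. The reporting summary gives littermates, in the number of the labels. The abcam MOF antibody that the labels name for these libraries is another product than the Abcam and Millipore ones listed in that summary. A single peak list per genotype was analysed, with no replicate values, so differences between genotypes have no replicate error beside them.

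Dlx and Msx genes encode homeodomain transcription factors, which bind DNA at sites around a TAAT core. In mammals the Dlx genes lie in pairs that face each other, and the DNA between the genes of a pair holds enhancers that they share. Dlx factors are known for the development of forebrain interneurons, the jaw and the limbs, and DLX3 for hair, teeth and bone. MSX1 and MSX2 act mostly as repressors in tooth, skull and limb development, often downstream of BMP signals. MOF acetylates histone H4 and works in complexes at gene starts and elsewhere in the genome.

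The sequences under 8 Mof+/- summits are shown because they are where MOF enrichment was found at these genes in both lists, apart from the window between Dlx6 and Dlx5. That window is shown as the Mof+/- peak that overlapped no Mof+/+ peak, and it was picked after its values were seen. Where several summits lay in the same feature, the one with the highest fold enrichment is printed. Each is 300 bp around the summit on the plus strand of GRCm38 (patch 6), with CpG sites in capitals, and windows in untranslated regions are not printed.
Dlx1 intron, chr2:71530596-71530895: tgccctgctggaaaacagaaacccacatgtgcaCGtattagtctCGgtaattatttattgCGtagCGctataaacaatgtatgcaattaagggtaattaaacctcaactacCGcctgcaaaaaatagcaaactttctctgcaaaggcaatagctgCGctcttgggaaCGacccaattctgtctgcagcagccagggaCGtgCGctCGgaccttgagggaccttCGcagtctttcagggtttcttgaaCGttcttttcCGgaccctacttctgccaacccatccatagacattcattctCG
Between Dlx1 and Dlx2, chr2:71539054-71539353: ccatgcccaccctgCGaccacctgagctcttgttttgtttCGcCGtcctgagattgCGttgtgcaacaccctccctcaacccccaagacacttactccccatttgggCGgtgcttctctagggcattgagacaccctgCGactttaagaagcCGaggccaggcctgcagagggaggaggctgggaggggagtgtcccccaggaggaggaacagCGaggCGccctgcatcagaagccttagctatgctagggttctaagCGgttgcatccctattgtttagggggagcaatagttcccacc
Dlx2 intron, chr2:71545046-71545345: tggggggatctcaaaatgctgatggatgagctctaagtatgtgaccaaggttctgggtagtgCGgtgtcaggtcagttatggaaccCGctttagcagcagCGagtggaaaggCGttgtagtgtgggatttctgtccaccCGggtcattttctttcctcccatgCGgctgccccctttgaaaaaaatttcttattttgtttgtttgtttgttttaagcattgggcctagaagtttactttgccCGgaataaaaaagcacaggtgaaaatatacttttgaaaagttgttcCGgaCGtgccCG
Upstream of Dlx6, chr6:6860676-6860975: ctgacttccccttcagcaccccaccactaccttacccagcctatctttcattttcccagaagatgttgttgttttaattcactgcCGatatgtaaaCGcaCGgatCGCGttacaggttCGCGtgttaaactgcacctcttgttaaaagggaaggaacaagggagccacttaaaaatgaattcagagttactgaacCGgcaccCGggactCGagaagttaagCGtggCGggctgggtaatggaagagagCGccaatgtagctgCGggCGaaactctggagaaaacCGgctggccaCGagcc
Dlx6 intron, chr6:6864711-6865010: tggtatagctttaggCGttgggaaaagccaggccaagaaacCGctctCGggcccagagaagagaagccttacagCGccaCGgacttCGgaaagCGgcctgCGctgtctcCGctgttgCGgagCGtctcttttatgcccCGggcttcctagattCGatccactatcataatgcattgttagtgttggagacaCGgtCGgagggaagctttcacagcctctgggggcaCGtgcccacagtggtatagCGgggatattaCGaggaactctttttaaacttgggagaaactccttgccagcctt
Between Dlx6 and Dlx5, Mof+/- only, chr6:6868805-6869104: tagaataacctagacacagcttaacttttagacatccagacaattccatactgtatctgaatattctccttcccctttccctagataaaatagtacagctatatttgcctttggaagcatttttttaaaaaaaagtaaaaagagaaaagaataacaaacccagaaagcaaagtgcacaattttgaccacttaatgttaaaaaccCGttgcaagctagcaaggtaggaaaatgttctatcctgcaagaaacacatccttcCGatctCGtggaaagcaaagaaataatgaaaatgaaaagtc
Msx1, chr5:37823164-37823463: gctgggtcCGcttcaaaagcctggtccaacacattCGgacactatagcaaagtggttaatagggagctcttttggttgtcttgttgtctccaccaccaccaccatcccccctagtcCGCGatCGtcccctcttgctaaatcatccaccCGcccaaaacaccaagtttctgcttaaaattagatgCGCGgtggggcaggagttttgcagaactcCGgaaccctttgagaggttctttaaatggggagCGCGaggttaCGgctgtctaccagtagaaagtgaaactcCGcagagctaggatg
Upstream of Msx1, chr5:37826062-37826361: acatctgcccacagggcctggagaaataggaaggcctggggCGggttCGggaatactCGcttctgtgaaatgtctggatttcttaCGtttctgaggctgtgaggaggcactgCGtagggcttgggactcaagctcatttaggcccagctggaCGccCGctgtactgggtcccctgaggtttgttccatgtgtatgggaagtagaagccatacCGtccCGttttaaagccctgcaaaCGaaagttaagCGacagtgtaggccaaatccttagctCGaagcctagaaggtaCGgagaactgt

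**Figure D1:**
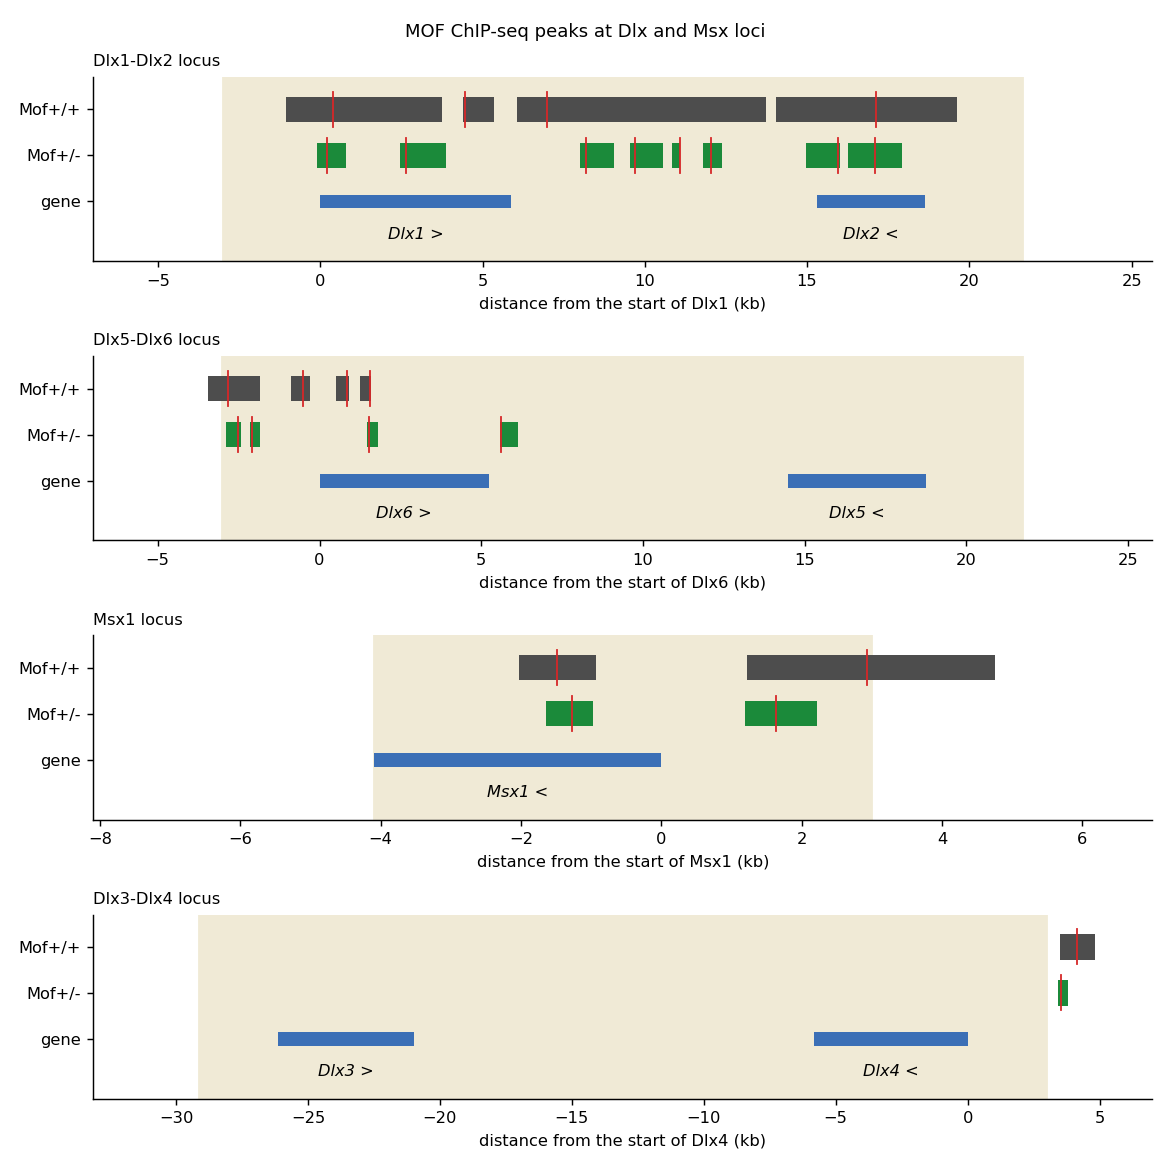
Peaks of the Mof+/+ list (dark grey) and the Mof+/- list (green) against distance in kb from the start of the named gene, with summits as red lines, genes as blue bars with the direction of transcription, and the searched locus shaded. At Dlx1-Dlx2 the Mof+/+ peaks cover 77.2% of the locus and the Mof+/- peaks 32.0%, while the only peaks drawn at Dlx3-Dlx4 lie outside the shading.

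In their own windows, the gene body and 3 kb around the starts, 4 of the 8 genes had a peak in the Mof+/+ list, where 44.5% of all protein-coding genes had one. In the Mof+/- list 4 of the 8 had one too, against 1.89% of all protein-coding genes. They were Dlx1, Dlx2, Dlx6 and Msx1 in both lists. Counting the stretch between paired genes added Dlx5 in the Mof+/- list, which made 5 of 8, and no gene in the Mof+/+ list. Dlx3, Dlx4 and Msx2 had no peak in either list. The windows of the 8 genes were short, with a median of 8206.5 bp against 20622 bp over all protein-coding genes.

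The Dlx1-Dlx2 locus held 8 of the 14 Mof+/- peaks and 4 of the 10 Mof+/+ peaks. DLX1 and DLX2 are the pair best known for the specification and migration of forebrain interneurons. Dlx1 lies on chromosome 2 from 71528113 to 71533981 on the plus strand, and Dlx2 from 71543408 to 71546754 on the minus strand. In the Mof+/+ list 4 peaks covered 19026 of the 24642 bp of the locus (77.2%). In the Mof+/- list 8 peaks covered 7892 bp (32.0%), and each of them overlapped a Mof+/+ peak. The called regions were thus fewer and wider in the Mof+/+ list.

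At Dlx1, a Mof+/+ peak from 71527048 to 71531860 had a fold enrichment over input of 5.75 at its summit (95% Poisson interval 3.80 to 8.38), from 25 fragments over a background of 3.52. Fold enrichment here is the fragment number plus 1 over the background plus 1, as the peak caller computes it. The Mof+/- list had a pair of peaks in this region. The first, from 71528027 to 71528900, had a fold enrichment of 6.13 (3.81 to 9.40) from 19 fragments over 2.26. The second, from 71530572 to 71531995, had one of 4.91 (2.88 to 7.89) from 15 fragments. Together they covered 44.9% of the Mof+/+ peak. The first Mof+/- summit, at 71528330 in an untranslated region of Dlx1, lay 187 bp from the Mof+/+ summit at 71528517. All 6 annotated start sites of Dlx1 were inside Mof+/+ peaks and 3 of them were inside Mof+/- peaks. A further Mof+/+ peak in the 3′ part of Dlx1, from 71532496 to 71533456, had a fold enrichment of 3.68 (2.23 to 5.77) and no Mof+/- counterpart.

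The 9426 bp between Dlx1 and Dlx2 were covered to 94.9% by Mof+/+ peaks and to 33.9% by Mof+/- peaks. A single Mof+/+ peak from 71534181 to 71541860, 7680 bp wide, took up most of the stretch, with a fold enrichment of 5.02 (3.32 to 7.33). By width it ranked 39 in the Mof+/+ list. Within it the Mof+/- list had 4 separate peaks, which covered 37.3% of it. Their fold enrichments were 4.95 at 71536116 to 71537150, 4.60 at 71537660 to 71538684, 5.52 at 71538959 to 71539210 and 4.37 at 71539921 to 71540475. Their summits rested on 14 to 17 fragments each, and their intervals all overlapped that of the Mof+/+ peak. The first summit lay in an intron of the antisense gene Dlx1as, the second in an exon of it, and the others in no annotated gene.

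Dlx2 had the highest fold enrichment of the 10 Mof+/+ peaks at these loci. The peak from 71542145 to 71547716 covered the whole gene body, with a fold enrichment of 6.62 (4.66 to 9.13) from 35 fragments over a background of 4.44. It ranked 317 by fold enrichment among all 19773 Mof+/+ peaks and 97 by width. The Mof+/- peaks in it ran from 71543077 to 71544123 (fold enrichment 4.95, 2.95 to 7.85) and from 71544371 to 71546050 (6.13, 3.81 to 9.40), and covered 48.9% of it. The summit of the latter, at 71545196 in an intron of Dlx2, was 38 bp from the Mof+/+ summit. Both start sites of Dlx2 were in the Mof+/+ peak and 1 was in a Mof+/- peak.

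The Dlx5-Dlx6 locus was covered far less, to 9.89% by 4 Mof+/+ peaks and to 6.78% by 4 Mof+/- peaks. DLX5 and DLX6 pattern the lower jaw and act in limb and bone development. Dlx6 lies on chromosome 6 from 6863334 to 6868568 on the plus strand, and Dlx5 from 6877805 to 6882085 on the minus strand. All 4 Mof+/+ peaks lay at the 5′ side of Dlx6 and none touched a start site of either gene. The strongest, from 6859894 to 6861498, had a fold enrichment of 4.20 (2.58 to 6.51). The next 3 had fold enrichments of 2.90 at 6862449 to 6863034, 3.10 at 6863852 to 6864232 and 2.48 at 6864600 to 6864915. The last of these had a background of 6.26 fragments, above the lowest background of the list (3.52). By fold enrichment it ranked 18902 of the 19773 Mof+/+ peaks.

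In the Mof+/- list the upstream Mof+/+ peak of Dlx6 was matched by 2 peaks, from 6860444 to 6860905 (fold enrichment 3.99, 2.21 to 6.73) and from 6861199 to 6861497 (3.71, 2.14 to 6.05). Another, in an intron of Dlx6 from 6864807 to 6865148, had a fold enrichment of 3.65 (2.18 to 5.80), and its summit was 26 bp from that of the Mof+/+ peak it overlapped. The nearest start site of Dlx6 was 54 bp from a Mof+/+ peak and 1009 bp from a Mof+/- peak. All 8 summits of the locus lay in introns of the long antisense gene Dlx6os1, and 3 of them also in an intron of Dlx6 and an exon of Dlx6os2.

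The 1 Mof+/- peak without an overlapping Mof+/+ peak lay between Dlx6 and Dlx5, from 6868903 to 6869476. Its fold enrichment was 4.60 (2.65 to 7.51), from 14 fragments over a background of 2.26, which ranked 240 of the 731 Mof+/- peaks. Its sequence differed from the other windows printed above: it had 34.3% G+C and 3 CpG sites in 300 bp, both the lowest of the 14 Mof+/- summit windows. Dlx5 itself was 17153 bp from the nearest Mof+/+ peak and 12592 bp from the nearest Mof+/- peak, counted from its nearest start.

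Msx1 had 2 peaks in each list. MSX1 is a homeodomain repressor required for tooth and palate formation. The gene lies on chromosome 5 from 37820485 to 37824583 on the minus strand. The peak inside it ran from 37822560 to 37823646 in the Mof+/+ list, with a fold enrichment of 3.10 (1.75 to 5.14) from 13 fragments. In the Mof+/- list it ran from 37822947 to 37823607, with one of 3.68 (1.99 to 6.34) from 11 fragments. The upstream peak was 3531 bp wide in the Mof+/+ list, from 37825810 to 37829340, and 1027 bp wide in the Mof+/- list, from 37825779 to 37826805. Its fold enrichment was 2.54 (1.62 to 3.83) from 21 fragments over a background of 7.65 in the Mof+/+ list and 4.91 (2.88 to 7.89) from 15 over 2.26 in the Mof+/- list. The Mof+/+ summit thus held more fragments, on a higher local background. This upstream Mof+/+ peak ranked 18595 of 19773 by fold enrichment and 316 by width. The start itself was in no peak, 936 bp from the nearest Mof+/+ and 975 bp from the nearest Mof+/- peak.

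The other genes had none within their windows. Dlx3 (chromosome 11, 95120119 to 95125296) and Dlx4 (95140447 to 95146263) are a pair, and the 15150 bp between them held no peak. The closest peaks lay just outside the window, 3493 bp (Mof+/+) and 3415 bp (Mof+/-) from the start of Dlx4. They ran from 95149756 to 95151091 with a fold enrichment of 3.05 and from 95149678 to 95150055 with one of 5.52 (3.34 to 8.65). Just inside the 3 kb limit were Mof+/+ summits 2843 bp upstream of Dlx6 and 2931 bp upstream of Msx1. For Msx2 (chromosome 13, 53466884 to 53473074), which acts in skull and hair development, the nearest Mof+/+ peak was 95355 bp away, at Sptlc1, and the nearest Mof+/- peak 2353251 bp away. At this depth, MOF may bind where no peak was called.

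**Figure D2:**
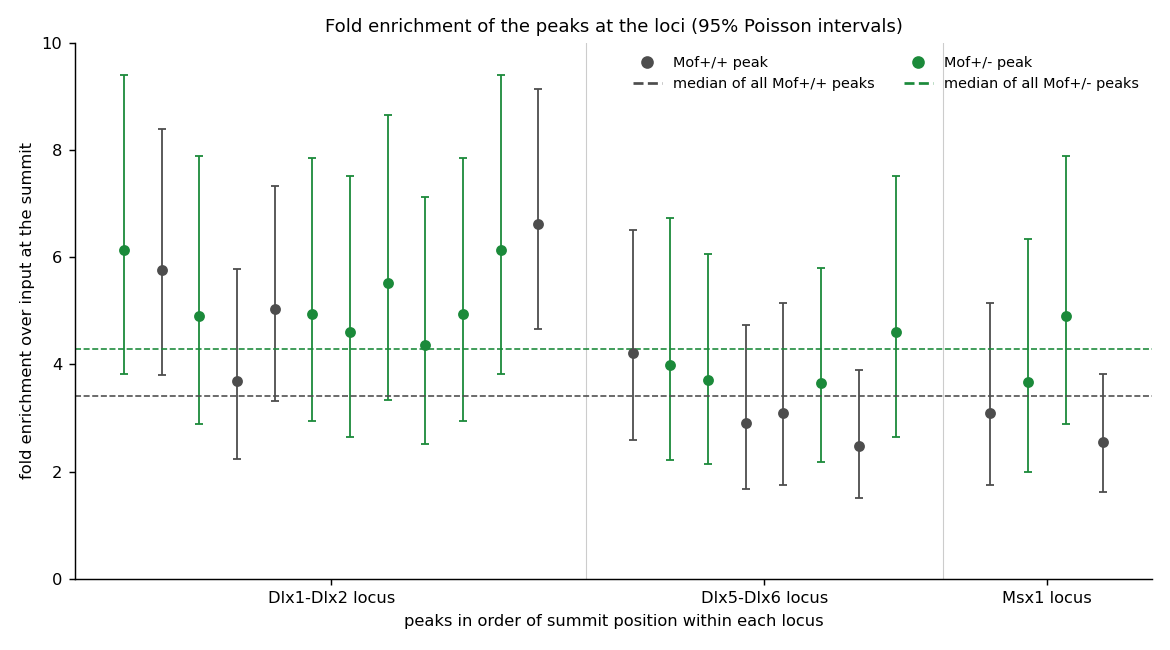
Fold enrichment over input at the summit of each peak at the Dlx1-Dlx2, Dlx5-Dlx6 and Msx1 loci, ordered by summit position, with 95% Poisson intervals and dashed lines at the median of each whole list (3.40 for Mof+/+, 4.29 for Mof+/-). All 8 Mof+/- peaks at Dlx1-Dlx2 lie above the Mof+/- median, and the intervals of overlapping peaks overlap.

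Overlap was given by list. Of the 10 Mof+/+ peaks at the loci 7 (70.0%, 95% Wilson interval 39.7 to 89.2) shared at least 1 bp with a Mof+/- peak, beside 2.5% of all Mof+/+ peaks. Of the 14 Mof+/- peaks 13 (92.9%, 68.5 to 98.7) overlapped a Mof+/+ peak, beside 84.7% of all Mof+/- peaks. These overlaps were part of the choice of the genes and nothing is read from the difference to the lists. The Wilson intervals take peaks as separate draws, which neighbouring peaks of a locus are not. They serve only as a tolerance for other settings below. The overlap depended on its definition: with 50% of both peaks shared it was 10.0% and 7.14%. In the 13 overlapping pairs the Mof+/- summit had the higher fold enrichment in 5 and the Mof+/+ summit in 8, and the intervals overlapped in all 13. These pairs came from only 7 Mof+/+ peaks. The summit of a wide Mof+/+ peak was therefore counted more than once, that at 71535093 in 4 pairs. The split of 5 and 8 depends on this reuse, and no direction is read from it. All 13 Mof+/- summits fell inside the Mof+/+ peak, and in 5 pairs the Mof+/+ summit fell inside the Mof+/- peak. The summits of a pair were 26 to 5073 bp apart.

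The lists differed in their lowest background, read here as a sign of depth, so their fold enrichments and peak numbers are not on equal terms. Library totals were not used, so depth itself was not measured. The lowest background was 1.56 times as high for Mof+/+ (3.52 fragments) as for Mof+/- (2.26 fragments). Mof+/+ peaks at the loci held a median of 17.5 fragments (13 to 35), beside 16 over that list, and Mof+/- peaks 15 (11 to 19), beside 14. Median fold enrichment at the loci was 3.39 beside 3.40 in the Mof+/+ list and 4.75 beside 4.29 in the Mof+/- list. Median width was 1346 bp beside 609 bp in the Mof+/+ list and 767.5 bp beside 443 bp in the Mof+/- list. The part of depth in the narrower Mof+/- peaks was not tested.

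**Figure D3:**
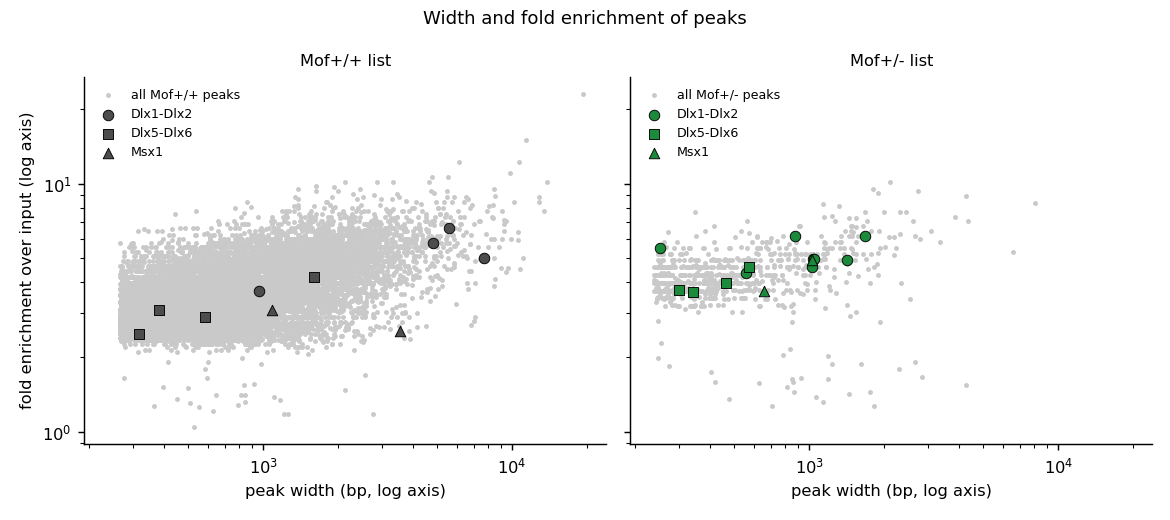
Width (bp) and fold enrichment over input of all peaks (light grey) of the Mof+/+ list (left) and the Mof+/- list (right), both axes logarithmic, with the peaks of the loci marked by locus. The 3 widest Mof+/+ peaks of the loci are 4813, 5572 and 7680 bp wide and all lie at Dlx1-Dlx2.

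The sequence under the summits was not used to choose the genes. Values over all peaks cover the 19753 Mof+/+ and 716 Mof+/- summits on assembled chromosomes. The 300 bp around the 10 Mof+/+ summits held a median of 14.5 CpG sites (10 to 19), beside 7 over all Mof+/+ peaks (interquartile range 3 to 21). The 14 Mof+/- windows held a median of 11.5 (3 to 18), beside 10 (5 to 16). All but 3 of the 14 Mof+/- values were inside the interquartile range of their list. The windows of the lists overlap at shared peaks, so the values of the lists are not separate observations. The median G+C was 57.0% beside 53.3% in the Mof+/+ list and 51.0% beside 50.3% in the Mof+/- list. CviKI-1, the enzyme used on the chromatin, cuts at an A or G followed by GC and then by a C or T. These sites numbered a median of 7.5 beside 7 in the Mof+/+ list and 6 beside 5 in the Mof+/- list.

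**Figure D4:**
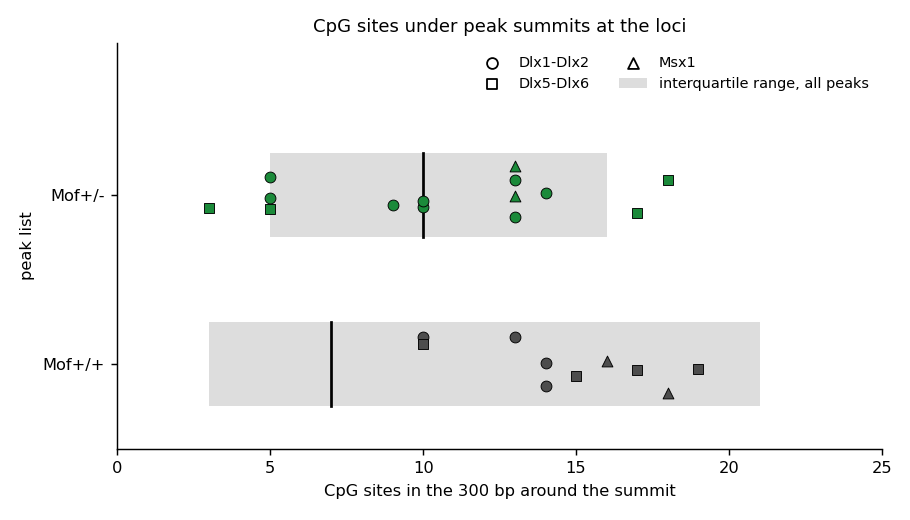
CpG sites in the 300 bp around each summit of the loci (points, marked by locus and spread vertically for display) in the Mof+/+ and Mof+/- lists, with the interquartile range (grey) and median (black line) of all peaks of the list. All 10 Mof+/+ values (10 to 19) lie above the list median of 7 and inside its interquartile range.

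TAATTA, a homeodomain core that reads the same on both strands, was found in 3 of the 14 Mof+/- summit windows (21.4%), beside 7.12% of all Mof+/- windows. It was in 1 of 10 Mof+/+ windows (10.0%), beside 3.90% of all. All of these windows were at Dlx1-Dlx2. Away from the summit windows, TAATTA also occurred in peaks elsewhere. It was found 3 times in the upstream Mof+/+ peak of Msx1, 2 times in the Mof+/- one, and 1 time in the Mof+/- peak between Dlx6 and Dlx5. The window in the intron of Dlx1 printed above held it 2 times, first at base 48. A match describes the letters only and does not show that a homeodomain factor binds there. RefSeq promoter windows of 300 bp around a start matched 4 of the 8 genes: Dlx1, Dlx2, Msx1 and Msx2. They held 27, 29, 29 and 22 CpG sites, beside a median of 7 over 32851 promoters in that table; Msx2, without a peak, was above it like the 3 genes with one. TAATTA was in 1 of these 4, that of Msx2, and in 5.29% of all promoters of the table. Entries for Dlx3, Dlx4, Dlx5 and Dlx6 were missing.

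Other homeobox families were counted by the same gene windows, without the stretches, and also had Mof+/- peaks. Of 12 LIM homeobox genes, which specify neurons and other cell types, 8 had a Mof+/+ peak (66.7%, beside 44.5% of all protein-coding genes) and 7 a Mof+/- peak (58.3%, beside 1.89%). The 7 were Lhx1, Lhx2, Lhx4, Lhx8, Lhx9, Isl2 and Lmx1a. Lhx8, a gene of forebrain cholinergic neurons, had the highest Mof+/- fold enrichment of these (8.89). Of 17 Hmx and Nkx genes 9 (52.9%) had a Mof+/+ and 6 (35.3%) a Mof+/- peak. The 6 were Hmx2, Hmx3, Nkx2-3, Nkx2-4, Nkx2-5 and Nkx6-1, with Hmx2 of the inner ear reaching fold enrichments of 12.2 (Mof+/+) and 10.1 (Mof+/-). Whether the families differ was not tested, and these are not all homeobox families, so their counts do not stand for homeobox genes in general. Msx3, the remaining Msx gene of the mouse, had no peak in either list.

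Among 21 genes that act upstream, beside or downstream of Dlx and Msx in development, 8 had a Mof+/+ peak (38.1%, beside 44.5% of all protein-coding genes) and 3 a Mof+/- peak (14.3%, beside 1.89%). The 3 were Pax3 of neural crest and muscle (highest fold enrichment 4.65 in Mof+/+ and 4.91 in Mof+/-), the neural crest factor Tfap2a (5.75 and 4.60) and the bone regulator Runx2 (4.65 and 3.46). Of the signals, Edn1, which acts upstream of Dlx5 and Dlx6 in the jaw, had 2 Mof+/+ peaks (highest fold enrichment 2.74) and no Mof+/- peak, and Bmp2, Bmp4, Bmp7, Fgf8 and Shh had none in either list. Gad1, which encodes an enzyme of GABA synthesis in the interneurons that depend on Dlx genes, had 5 Mof+/+ peaks and no Mof+/- peak, and Gad2, which encodes the other such enzyme, had none in either list.

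The genes next to the loci were counted with the same windows. Of the 10 nearest protein-coding neighbours, 1 on each side of each locus, 6 had a Mof+/+ peak (Metap1d, Itga6, Tac4, Sem1, Stx18 and Sptlc1) and 0 had a Mof+/- peak, beside 44.5% and 1.89% of all protein-coding genes. A count of 0 among 10 genes is near that Mof+/- background. Itga6, an integrin gene 198862 bp past Dlx2, had 4 Mof+/+ peaks with fold enrichments of up to 4.30. Outside the loci, the nearest Mof+/- peak was 682672 bp from Dlx1-Dlx2, 8835034 bp from Dlx5-Dlx6, 8341240 bp from Msx1, 2350251 bp from Msx2 and 415 bp from Dlx3-Dlx4, the last being the peak near Dlx4 described above.

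**Figure D5:**
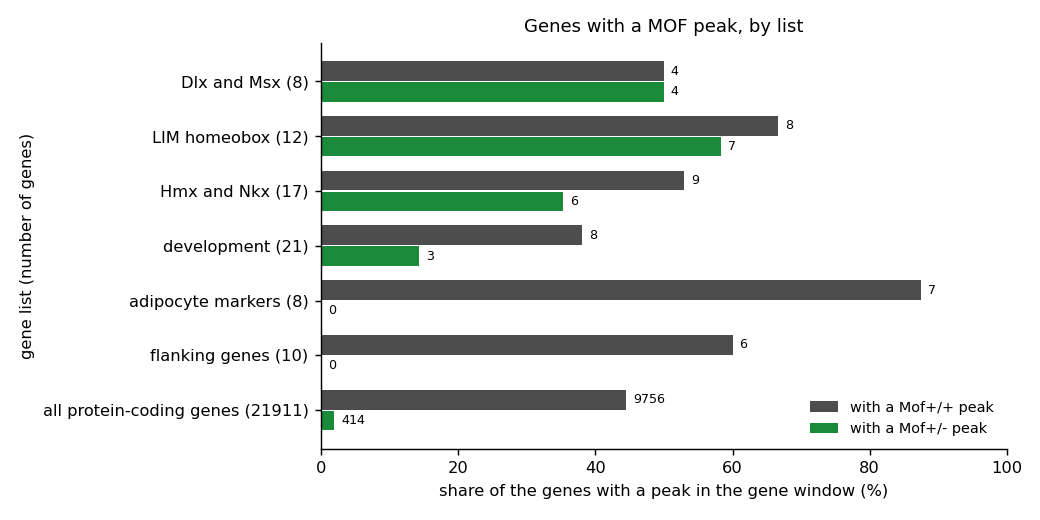
Share of genes with a Mof+/+ peak (grey) or a Mof+/- peak (green) in the gene window, by list, with the number of genes with a peak at the end of each bar and the list size in parentheses. Of the Dlx and Msx genes 4 of 8 have a peak in each list, while 7 and 0 of 8 adipocyte markers do.

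Marker genes were counted to check the labelled tissue, and stand beside 44.5% (Mof+/+) and 1.89% (Mof+/-) of all protein-coding genes. Of 8 adipocyte markers 7 had a Mof+/+ peak, among them Adipoq (adiponectin, highest fold enrichment 3.62) and Plin1 (the lipid droplet coat protein perilipin, 4.20), and 0 had a Mof+/- peak, which is near the background for 8 genes. Lep, the gene of leptin, had none in either list. Of markers of other cells, all 5 B cell genes had a Mof+/+ peak and 1, Pax5, had a Mof+/- peak. The highest Mof+/+ fold enrichment per gene ran from 3.10 to 7.52 in the B cell genes. In the adipocyte markers with a peak it ran from 2.88 to 5.09. Of 4 mesothelial genes 1, Wt1, had a peak in both lists. Of 3 endothelial genes 1, Pecam1, had a Mof+/+ peak, and of 4 neuron genes 0 had a peak in either list. From which cells the peaks at Dlx and Msx genes came was not tested.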

How the data were processed

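The processed data were 2 peak lists, 1 for each genotype. The authors mapped reads to GRCm38 (snakePipes) and called peaks with MACS2 (version 2.1.1.20160309.3 in the submitters' processing notes) against input at a q-value threshold of 0.1. How replicates were combined before peak calling is not stated. The methods also merge peaks of a cell type within 1000 bp, but neighbours closer than that were present at the loci, so the lists were taken as not merged. The deposited fold enrichment is a ratio, at the summit, of fragments to input background, each plus 1. The deposited −log10 p-value, −log10 q-value and summit position come from the same caller. File names gave the genotype of the lists. Library totals are not in the lists, so depth was read from the peaks: fragments and background were solved from fold enrichment and p-value, within 0.001 for 99.9% of Mof+/+ and 98.9% of Mof+/- peaks, after the method was tested on simulated data. Poisson intervals are exact 95% intervals and cover counting error only. Wilson intervals, also 95%, take peaks as separate draws and were used only as a tolerance for overlap shares.

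Coordinates are counted from 1. Sequence came from GRCm38 patch 6 (RefSeq) and genes from GENCODE M21. Scripts used Python 3.11.15, pandas 2.3.3 and scipy 1.17.1. The members and lists were chosen with earlier results of these data known, and no test was run. Named were the 8 genes, every peak at their loci, genes annotated inside or next to the loci, and listed genes with a Mof+/- peak. Values of Lhx8 and Hmx2 were given, and other genes named, after their values were seen (Gad1, Gad2, Edn1, the BMP, FGF and hedgehog signals, Msx3, Lep, Adipoq, Plin1, Pecam1). Alternatives were stricter q-values, other windows and start sites, other overlap rules, merged peaks and a shared p-value cutoff. H3 libraries and signal tracks were not used here, and the counts of a further homeobox family are not reported here.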

Additional observations from a re-analysis of the deposited data

How the results depend on the processing

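Of 72 alternative values for the numbers of genes and peaks, the overlaps and the covered bases, 56 stayed within 1.5 times the reported value or, for overlaps, inside its Wilson interval, and 16 did not. Both tolerances are wide for so few genes and peaks, so the tally does not measure stability. With 1 kb around start sites only, 3 genes had a Mof+/- peak, the loci held 6 Mof+/+ and 4 Mof+/- peaks, 100% of the Mof+/- peaks overlapped and Mof+/+ peaks covered 42.4% of the bases. With 3 kb around start sites only there were 9 Mof+/- peaks, of which 100% overlapped. Without the stretch between paired genes, an alternative chosen after seeing the data, there were also 9, of which 100% overlapped. At a q-value of at most 0.001 there were 5 Mof+/+ peaks, and past the weakest Mof+/- p-value 6. At that q-value 3 genes kept a Mof+/+ peak and Msx1 lost its own, a change that still counted as within 1.5 times. With peaks within 1000 bp merged there were 4 Mof+/+ and 9 Mof+/- peaks, and 100% of the Mof+/+ peaks overlapped. With 50% of both peaks shared, 10.0% of Mof+/+ and 7.14% of Mof+/- peaks overlapped. Smaller windows, stricter cutoffs and the 50% rule count fewer bases, peaks or overlaps by construction, and merging counts fewer peaks. Shares are taken of a changed total and could rise, as coverage at 1 kb and the overlaps of 100% did. No other cause was tested. A window of 5 kb, also added after seeing the data, brought in Dlx4, with 5 genes for Mof+/+ and 6 for Mof+/-.

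No paired analysis was possible because the lists used here hold no values by replicate, and for that reason leaving out a replicate was not run. Signal tracks and reads were not used here. Summits rested on 11 to 35 fragments, which limits how finely fold enrichments can be told apart.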
